A study of Chlamydomonas reinhardtii with 6 samples.

Results

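The genes described here encode 9 enzymes of chlorophyll synthesis and the regulator GUN4 in the unicellular green alga Chlamydomonas reinhardtii. They were chosen by locus identifier as 10 of the 17741 gene models in the deposited table, and all 10 were present. Cultures of strain CC-4532 with 1000 µM manganese in the medium were compared with cultures of the same strain at 6 µM manganese, the control level. There were 3 flasks per group, inoculated from a shared starter culture and grown in acetate medium at 24 °C under continuous light to 3000000 cells per mL. Poly-A RNA of each culture was sequenced, and the values are FPKM, in which fragments are scaled to transcript length and to library size. All 10 genes were far above 1 FPKM in every culture, between 31.2 and 349.5 FPKM, and none was absent or listed at 0. Neither the table nor the RefSeq gene table carries symbols or products, so the names are those given with the list of identifiers.

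Chlorophyll is made in the chloroplast by enzymes that are encoded mainly in the nucleus. Glutamate is first turned into aminolevulinate, molecules of which are joined into the porphyrin ring, and the pathway then divides into a branch with iron, which gives haem, and a branch with magnesium, which gives chlorophyll. Magnesium chelatase, made of the subunits CHLD, CHLI and CHLH, opens the magnesium branch, and GUN4 binds porphyrins and stimulates this enzyme. Chlamydomonas can also reduce protochlorophyllide in the dark with an enzyme encoded in the chloroplast genome, apart from the light-dependent enzyme POR1. Manganese is needed for water oxidation by photosystem II, and the comparison addresses how the RNA pool differs when the metal is in excess.

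No member passed the test for a difference between 1000 µM and 6 µM manganese, and no gene of the whole table did. With limma fitted to log2(FPKM + 1) over all 12543 genes that averaged 1 FPKM or more, and Benjamini-Hochberg adjustment, 0 of the 10 members and 0 genes in all (0%) had an adjusted p under 0.05. All 10 members had a higher mean at 1000 µM, with differences of log2(FPKM + 1) from 0.12 to 0.33 and a median of 0.24. A higher mean at 1000 µM was also found in 53.7% of all tested genes, whose median difference was 0.01. Among the 1531 genes with a mean at or above that of GUN4, the lowest member, the share was 76.0% and the median difference 0.08.

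The culture that stood apart was 1000 µM replicate 3. It held the highest value of 9 of the 10 members, where it held the highest value of 33.1% of all tested genes and of 46.6% of the genes at or above the mean of GUN4. Across genes, its deviation from its group correlated with that of 6 µM replicate 1 at r = 0.752. This is a description over 12543 genes that share 6 libraries, for a pair picked in these same data. Libraries of the 2 groups with the same number correlated at r = -0.396, 0.513 and -0.503 for numbers 1, 2 and 3. Deviations within a group cancel out, so these correlations are linked. The summed FPKM of the table lay between 629620 and 767912 per library. Read depth is not kept in FPKM, but the steps between low values gave relative reads per FPKM of 0.712 to 1.04 in the cultures at 1000 µM, with 0.853 in replicate 3, and of 1 to 1.13 in the cultures at 6 µM. The part that depth or the state of these cultures plays in the results was not tested.

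**Figure D1:**
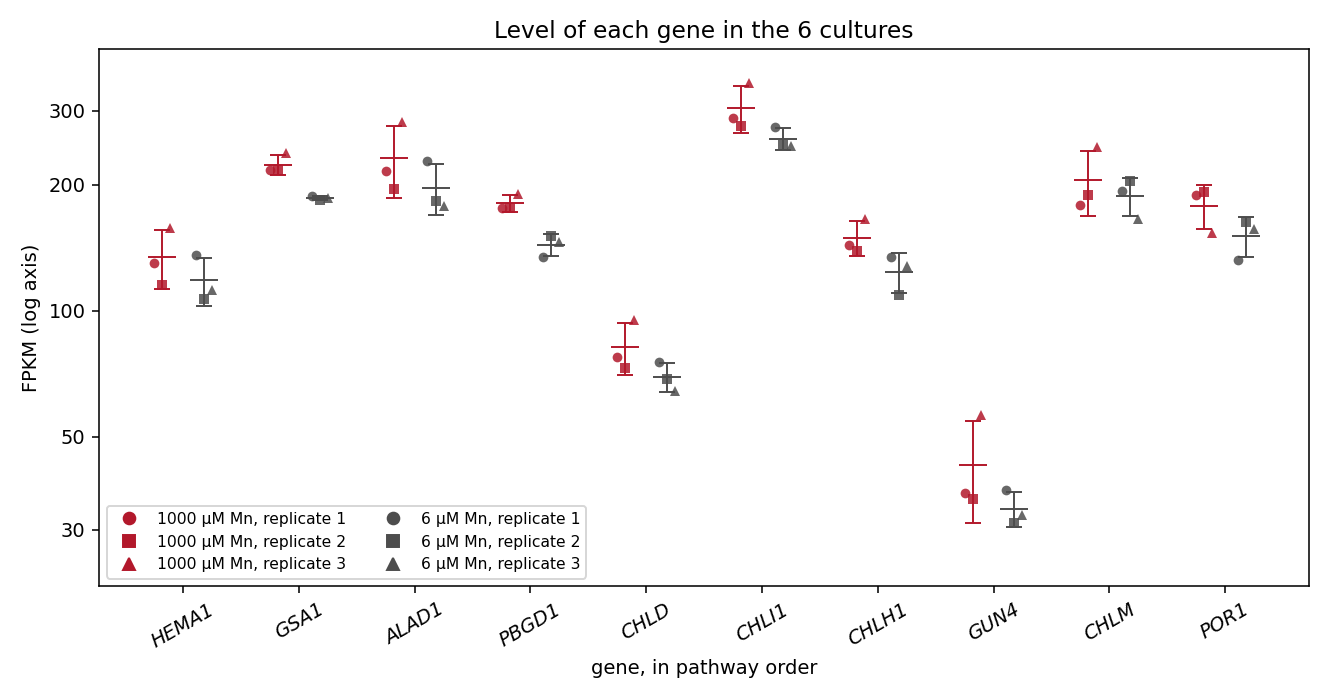
FPKM (log axis) of the 10 genes, in pathway order, in the 1000 µM cultures (red, left of each pair) and the 6 µM cultures (grey, right). Points are single cultures, marked by replicate number, and bars are the mean and SD of 3. The triangles of 1000 µM replicate 3 lie highest for every gene except POR1.

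The enzymes that supply aminolevulinate are HEMA1 and GSA1. HEMA1 (Cre07.g342150.v5.5, chromosome 7, 4202521 to 4206092) encodes glutamyl-tRNA reductase, the first committed and most regulated step of the pathway in plants. It had 129.8, 115.0 and 157.7 FPKM in 1000 µM replicates 1, 2 and 3, against 135.9, 106.8 and 111.9 FPKM in 6 µM replicates 1, 2 and 3. The groups overlapped, and 6 µM replicate 1 was above both lower cultures at 1000 µM. Its difference of log2(FPKM + 1) was 0.18 with a standard error of 0.15, and the 95% interval in FPKM ran from 0.89-fold to 1.44-fold. Without 1000 µM replicate 3 that difference was 0.06. GSA1 (Cre03.g158000.v5.5, chromosome 3, 2272727 to 2276164) encodes glutamate semialdehyde aminotransferase, which forms aminolevulinate. It had 216.2, 216.0 and 237.4 FPKM in 1000 µM replicates 1, 2 and 3, against 187.5, 183.7 and 185.9 FPKM in 6 µM replicates 1, 2 and 3. Every culture at 1000 µM lay above every culture at 6 µM, and the cultures at 6 µM were within 3.77 FPKM of each other. Its difference of log2(FPKM + 1) was 0.26 ± 0.10 (standard error), with a 95% interval in FPKM of 1.02-fold to 1.41-fold, an unadjusted limma p of 0.0303 and an adjusted limma p of 1.

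The next enzymes build the ring precursors. ALAD1 (Cre02.g091050.v5.5, chromosome 2, 2376375 to 2380018) encodes aminolevulinate dehydratase, which joins aminolevulinate into porphobilinogen. It had 215.0, 195.6 and 282.2 FPKM in 1000 µM replicates 1, 2 and 3, against 227.5, 182.9 and 178.1 FPKM in 6 µM replicates 1, 2 and 3. Both groups contained 1 culture well above the other 2, and the groups overlapped. Its difference of log2(FPKM + 1) was 0.23, and 0.07 without 1000 µM replicate 3, with a 95% interval in FPKM of 0.90-fold to 1.52-fold over all cultures. PBGD1 (Cre16.g663900.v5.5, chromosome 16, 2916388 to 2919687) encodes porphobilinogen deaminase, which joins porphobilinogen into a linear tetrapyrrole. It had 175.6, 175.8 and 189.9 FPKM in 1000 µM replicates 1, 2 and 3, against 134.4, 151.1 and 145.7 FPKM in 6 µM replicates 1, 2 and 3. The groups did not overlap, and 6 µM replicate 1 was the lowest culture. PBGD1 had the largest difference of log2(FPKM + 1) among the members, 0.33 ± 0.10 (standard error), with a 95% interval in FPKM of 1.06-fold to 1.48-fold. Its unadjusted limma p of 0.0133 ranked 118 among the 12543 tested genes, and the adjusted limma p was 1.

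The 3 subunits of magnesium chelatase differed in level by several fold, with CHLI1 the highest and CHLD the lowest. CHLD (Cre05.g242000.v5.5, chromosome 5, 1830301 to 1836438), which forms the ATP-driven motor complex together with the CHLI subunit, had 77.6, 72.9 and 94.9 FPKM in 1000 µM replicates 1, 2 and 3, against 75.3, 68.8 and 64.3 FPKM in 6 µM replicates 1, 2 and 3, and its groups overlapped. CHLI1 (Cre06.g306300.v5.5, chromosome 6, 8333800 to 8337913), the ATPase subunit, had 288.3, 276.6 and 349.5 FPKM in 1000 µM replicates 1, 2 and 3, against 274.6, 248.9 and 246.6 FPKM in 6 µM replicates 1, 2 and 3. Its groups did not overlap, although only 2.0 FPKM separated 1000 µM replicate 2 from 6 µM replicate 1. CHLH1 (Cre07.g325500.v5.5, chromosome 7, 1676902 to 1683972), the subunit that binds protoporphyrin, had 143.4, 138.7 and 165.9 FPKM in 1000 µM replicates 1, 2 and 3, against 134.3, 108.8 and 128.0 FPKM in 6 µM replicates 1, 2 and 3. All its values at 1000 µM lay above those at 6 µM. The differences of log2(FPKM + 1) were 0.23, 0.24 and 0.27 for CHLD, CHLI1 and CHLH1, and their 95% intervals all included 0. Without 1000 µM replicate 3 they were 0.12, 0.14 and 0.19.

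GUN4 (Cre05.g246800.v5.5, chromosome 5, 971441 to 974184) was the lowest of the 10 in each culture. It had 36.7, 35.5 and 56.2 FPKM in 1000 µM replicates 1, 2 and 3, against 37.4, 31.2 and 32.5 FPKM in 6 µM replicates 1, 2 and 3. Only 1000 µM replicate 3 lay outside the range of the 6 µM cultures. GUN4 had the widest interval of the members: its difference of log2(FPKM + 1) was 0.31 ± 0.18 (standard error), and the 95% interval in FPKM ran from 0.93-fold to 1.66-fold. Without 1000 µM replicate 3 that difference was 0.10.

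The members that act after magnesium insertion are CHLM and POR1. CHLM (Cre12.g498550.v5.5, chromosome 12, 3240181 to 3243608) encodes the methyltransferase that acts on magnesium protoporphyrin. It had 178.7, 188.9 and 246.1 FPKM in 1000 µM replicates 1, 2 and 3, against 192.5, 204.2 and 165.8 FPKM in 6 µM replicates 1, 2 and 3. Its groups overlapped widely, and it had the smallest difference of log2(FPKM + 1), 0.12 ± 0.15 (standard error), which became -0.02 without 1000 µM replicate 3. POR1 (Cre01.g015350.v5.5, chromosome 1, 2635337 to 2638506) encodes the light-dependent protochlorophyllide oxidoreductase. It had 189.0, 191.7 and 153.2 FPKM in 1000 µM replicates 1, 2 and 3, against 132.2, 163.2 and 156.9 FPKM in 6 µM replicates 1, 2 and 3. It was the only member for which 1000 µM replicate 3 was the lowest culture of its group, and 6 µM replicate 1 was the lowest of the other group. Its difference of log2(FPKM + 1) was 0.24 ± 0.14 (standard error), and 0.34 without 1000 µM replicate 3.

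**Figure D2:**
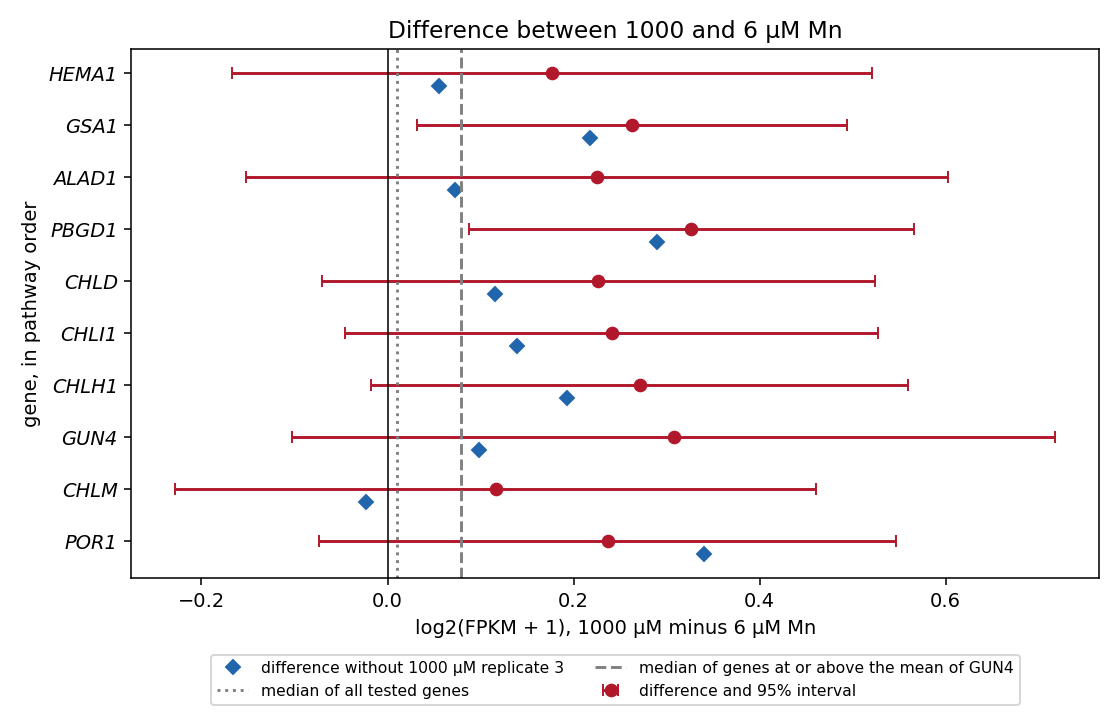
Difference of log2(FPKM + 1) between 1000 µM and 6 µM manganese for each gene, with the 95% interval from limma (red), and the difference without 1000 µM replicate 3 (blue). Vertical lines mark 0, the median of all tested genes at 0.01 and that of genes at or above the mean of GUN4 at 0.08. Only the intervals of GSA1 and PBGD1 exclude 0, with no adjustment for the number of genes.

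By the count of members, 2 of 10 had an unadjusted limma p under 0.05, both with a higher mean at 1000 µM, where 2.82% of all tested genes had such a p in either direction 1.08% with a higher mean and 1.75% with a lower one. The share with a higher mean was 2.09% among the 1531 genes at or above the mean of GUN4. For 4 of 10, GSA1, PBGD1, CHLI1 and CHLH1, all cultures at 1000 µM lay above all cultures at 6 µM, and for 0 of 10 below. Non-overlapping groups with higher values at 1000 µM were found in 4.34% of all tested genes, and with lower values in 3.70%. Among the 1531 genes at or above the mean of GUN4 the shares were 10.9% and 1.11%. The differences of the members stood between the 61.8th percentile, for CHLM, and the 98th percentile, for PBGD1, of those genes.

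**Figure D3:**
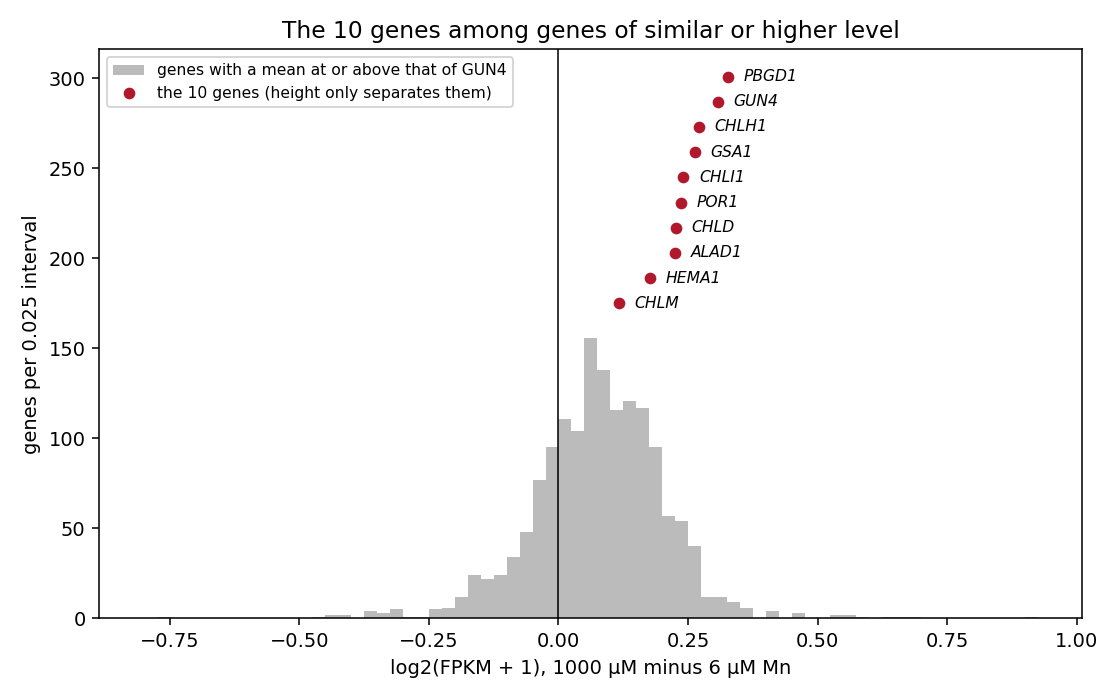
Histogram of the difference of log2(FPKM + 1), 1000 µM minus 6 µM manganese, over the 1531 genes with a mean at or above that of GUN4, in intervals of 0.025. The red points mark the 10 members, between 0.12 for CHLM and 0.33 for PBGD1, and their height only separates the names.

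The intervals bound how large a change of these genes could have gone unseen. For all 10 members the 95% interval, unadjusted for the number of genes, stayed below a 2-fold rise and above a 2-fold fall in FPKM. For 8 of 10 it stayed within 1.5-fold either way. The exceptions were ALAD1, with an upper bound of 1.52-fold, and GUN4, with an upper bound of 1.66-fold. The median half-width of the intervals, in log2(FPKM + 1), was 0.304 for the members. It was 0.258 for all tested genes and 0.301 for those at or above the mean of GUN4.

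The differences between groups can be set beside the distance of single cultures from their own group. It was taken for the pair picked above, 1000 µM replicate 3 and 6 µM replicate 1. For 7 of 10 the distance of 1000 µM replicate 3 from the mean of 1000 µM replicates 1 and 2, in log2(FPKM + 1), exceeded the difference between the groups. The distance of 6 µM replicate 1 from the mean of 6 µM replicates 2 and 3 did so for 3 of 10, HEMA1, ALAD1 and POR1. The distance of 1000 µM replicate 3 was positive for 9 members, from 0.11 for PBGD1 to 0.63 for GUN4, and -0.31 for POR1. The shares of all tested genes with such distances were not counted. Whether these counts are particular to the members was therefore not tested. Without 1000 µM replicate 3 the median difference of the members was 0.13, and the median of all tested genes was 0.0044. In that setting 9 of 10 members were positive, and the share of positive genes in the whole table was not counted. With all cultures that share was 53.7%, and 76.0% among genes at or above the mean of GUN4. The coefficient of variation at 1000 µM ran from 4.53% for PBGD1 to 27.3% for GUN4, and at 6 µM from 1.02% for GSA1 to 13.9% for ALAD1.

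**Figure D4:**
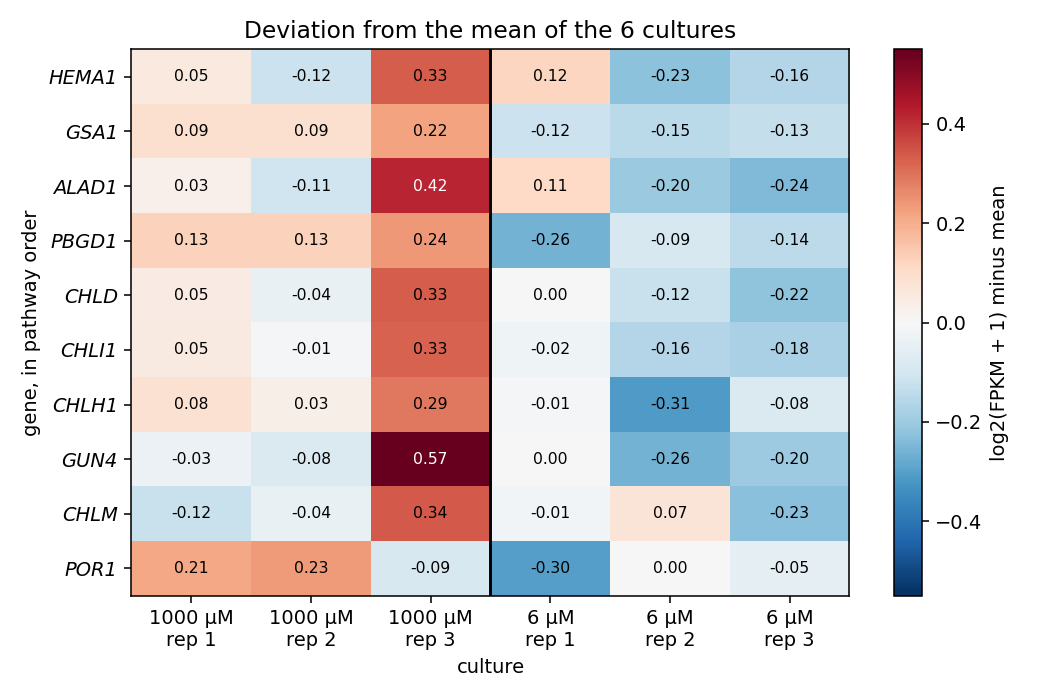
Deviation of log2(FPKM + 1) from the mean of the 6 cultures, for each gene (rows, in pathway order) and culture (columns, 1000 µM left of the line). The column of 1000 µM replicate 3 is positive for every gene except POR1, whose lowest value, -0.30, is in 6 µM replicate 1.

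The difference was also read separately within that picked pair of libraries and outside it. Between 1000 µM replicate 3 and 6 µM replicate 1, the difference of log2(FPKM + 1) was positive for 10 of 10 members, with a median of 0.33. Among the other 4, with replicates 1 and 2 at 1000 µM set against replicates 2 and 3 at 6 µM, it was positive for 9 of 10, with a median of 0.19, and CHLM stood at -0.0019. In the pair, 55.1% of all tested genes and 74.9% of those at or above the mean of GUN4 were positive, with medians of 0.02 and 0.13. Among the other 4 libraries the shares were 52.3% and 70.5%, with medians of 0.0063 and 0.06. Every member except CHLM was positive in both, for example PBGD1, at 0.50 in the pair and 0.24 among the other 4. CHLH1 stood at 0.30 and 0.25, and POR1 at 0.21 and 0.25. The pair was picked for its deviation in these same data, and both parts together make up the reported difference. Equal signs in both therefore do not replicate that difference.

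Summed over the 10 genes, the level was 1650, 1607 and 1933 FPKM in 1000 µM replicates 1, 2 and 3, against 1531, 1450 and 1416 FPKM in 6 µM replicates 1, 2 and 3. The groups did not overlap in this sum, but they did as a share of each library's total FPKM. That share was 0.235%, 0.209% and 0.280% in 1000 µM replicates 1, 2 and 3, against 0.243%, 0.202% and 0.207% in 6 µM replicates 1, 2 and 3. The largest share at 6 µM belonged to replicate 1, the library with the lowest total.

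In level over all 6 cultures, CHLI1 was the most abundant of the 10 in FPKM, with a mean of 280.8 FPKM, and was above ALAD1, the next, in 6 of 6 cultures. ALAD1, GSA1, CHLM, POR1 and PBGD1 followed with means from 213.5 to 162.1 FPKM. Neighbours in that stretch changed places between cultures, so their order is not settled by these values. CHLH1 averaged 136.5 FPKM and HEMA1 126.2 FPKM, with CHLH1 higher in 5 of 6 cultures. CHLD at 75.6 FPKM and GUN4 at 38.3 FPKM stood below the rest, each with a range that did not overlap that of the gene above it.

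Ratios of FPKM between genes in one culture do not depend on how that library was scaled. CHLI1 to CHLD, a pair of magnesium chelatase subunits, had a ratio of 3.72, 3.79 and 3.68 in 1000 µM replicates 1, 2 and 3, against 3.65, 3.62 and 3.84 in 6 µM replicates 1, 2 and 3. It thus stayed within a narrow range while the levels of both genes varied between cultures. No background of other gene pairs at similar levels was taken, so whether this range is particular to the pair was not tested. CHLH1 to CHLD averaged 1.83 ± 0.08 at 1000 µM and 1.79 ± 0.20 at 6 µM (SD, n = 3 each). GUN4 to CHLH1 had a ratio of 0.256, 0.256 and 0.339 in 1000 µM replicates 1, 2 and 3, against 0.279, 0.287 and 0.254 in 6 µM replicates 1, 2 and 3, and only 1000 µM replicate 3 was outside the range at 6 µM.

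POR1 to HEMA1, a late step against the first, varied most between cultures. The ratio was 1.46, 1.67 and 0.972 in 1000 µM replicates 1, 2 and 3, against 0.973, 1.53 and 1.40 in 6 µM replicates 1, 2 and 3. In 1000 µM replicate 3 and 6 µM replicate 1 it was nearly the same and below the other 4 cultures. None of the 4 ratios separated the groups, and the two-sided exact permutation p was 0.7 for CHLI1 to CHLD and 0.8 for each of the others, 0.8 for all after Benjamini-Hochberg adjustment over the 4. With 3 cultures against 3 this test cannot go below 0.1.

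**Figure D5:**
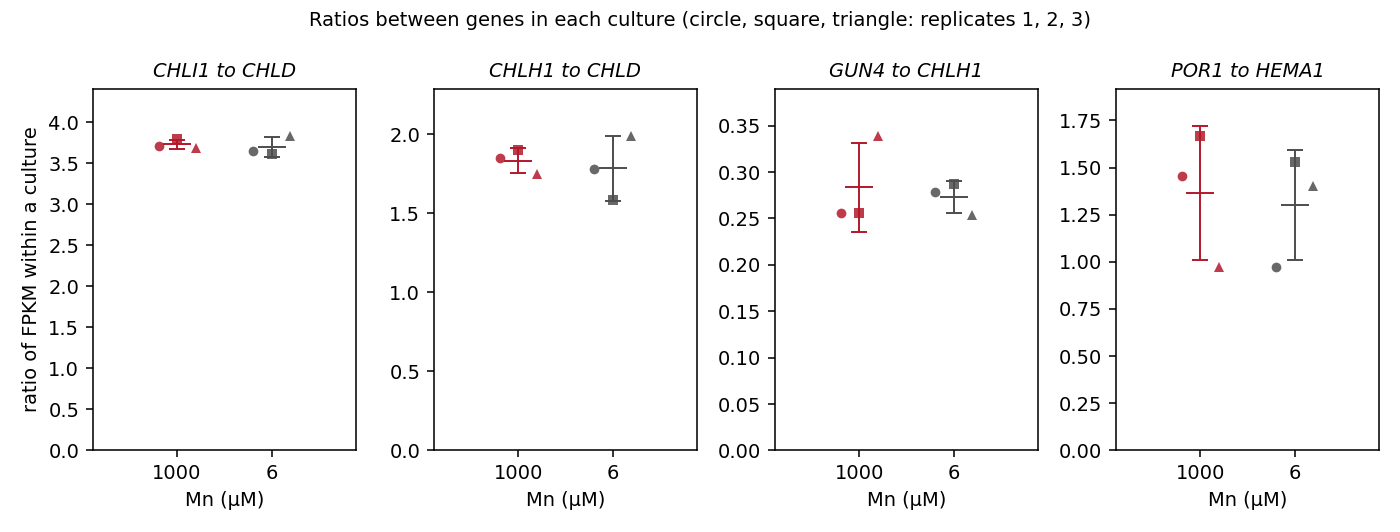
Ratio of FPKM within each culture for 4 pairs of genes, at 1000 µM (red, left) and 6 µM manganese (grey, right), with the mean and SD of 3. CHLI1 to CHLD lies between 3.62 and 3.84 in all cultures, and POR1 to HEMA1 is lowest, at 0.97, in 1 culture of each group.

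A further 12 loci were listed by identifier from general knowledge of tetrapyrrole synthesis, with no source among the files that checks their membership, so they are given without name or role. All 12 were tested, 0 of 12 passed the adjusted limma threshold, and 1 of 12 had an unadjusted limma p under 0.05, against 2.82% of all tested genes. All 12 had a higher mean at 1000 µM, against 53.7% of all tested genes and 76.0% of those at or above the mean of GUN4. The latter set does not hold Cre11.g477625, which averaged only 6.81 FPKM. The median of their differences of log2(FPKM + 1) was 0.15, in a range of 0.02 to 0.57, and 0.07 without 1000 µM replicate 3. For 2 of 12 every culture at 1000 µM lay above every culture at 6 µM, against 4.34% and 10.9% of the same sets of genes. In 8 of 12 the highest culture was 1000 µM replicate 3, against 33.1% and 46.6%.

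The locus with the largest of these differences, Cre07.g346050, had 89.3, 120.1 and 101.1 FPKM in 1000 µM replicates 1, 2 and 3, against 55.2, 106.6 and 55.7 FPKM in 6 µM replicates 1, 2 and 3. The groups overlapped through 6 µM replicate 2, and its 95% interval, up to 2.22-fold in FPKM, was the only one of the 12 that reached a 2-fold change. Its difference of log2(FPKM + 1) was 0.57, with an unadjusted limma p of 0.0513 and an adjusted limma p of 1. Cre02.g085450, the locus with an unadjusted limma p of 0.0293, had 123.4, 125.3 and 151.7 FPKM in 1000 µM replicates 1, 2 and 3, against 107.4, 114.6 and 92.9 FPKM in 6 µM replicates 1, 2 and 3. Its groups did not overlap, its difference of log2(FPKM + 1) was 0.34, and its adjusted limma p was 1.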

How the data were processed

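The values are FPKM as the authors deposited them, in 1 table with a column for each culture. The submitters' processing notes list Cuffdiff 2.2.1, STAR and CASAVA. Settings, strand handling, normalization and the build of the alignment were not given in the sources used here. Columns were assigned to cultures by manganese level and replicate number in the titles. Identifiers were matched by locus tag to RefSeq genes (assembly Chlamydomonas_reinhardtii_v5.5), where all 10 members were found, and positions (1-based) are of that assembly.

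From the values as deposited, log2(FPKM + 1) was fitted for the 12543 genes averaging 1 FPKM or more, by limma 3.58.1 in R 4.3.3 (eBayes with a mean-variance trend, two-sided, Benjamini-Hochberg adjustment over all tested genes, threshold 0.05). The pseudocount slightly understates differences. Intervals are at 95% and were converted to folds of FPKM at the 6 µM mean. The fit was tested on simulated data in which genes varied independently, so deviations shared across genes in a library were not covered by that test. Flasks share a starter culture, so p-values reflect only the spread between flasks. FPKM keeps no absolute depth, so no counting interval is given. Relative reads per FPKM were read from the most frequent ratio of low values (genes averaging under 0.15 FPKM). The replicate numbers were not treated as pairs.

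All members were named, whatever their values. The members, the further loci, the tests and the alternatives were chosen with earlier results of these data known. Alternatives were other pseudocounts, filters, scalings, library weights, an untrended variance prior, a replicate block, and leaving out libraries. Figures were drawn with matplotlib 3.10.9.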

Additional observations from a re-analysis of the deposited data

How the results depend on the processing

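No member and none of the 12 further loci passed the adjusted limma threshold in any of 17 alternatives, in which the adjusted p of members was at least 0.274 (PBGD1 with library weights, in a range of 0.274 to 1). Of 12543 tested genes, 0 passed as reported and 354 had an unadjusted p under 0.05. The number past the adjusted threshold became 2 with the same FPKM total per library, 26 (1 higher, 25 lower) with library quality weights and 3 without both 6 µM replicate 1 and 1000 µM replicate 3. It ranged from 0 to 2 when 1 library was left out. The members with an unadjusted p under 0.05 numbered 2 as reported, 6 with library weights, 3 without a variance trend or without both libraries, 1 with quantile normalization or a replicate block and 0 with the same FPKM total. The count over all tested genes moved too, from 354 to 1272 with library weights, 638 without both libraries and 530 with the same FPKM total. It was 366 without a variance trend and 366 with quantile normalization. With no filter it was 618, and with a minimum mean of 5 FPKM it was 172. Those 2 settings also change how many genes are tested, so their counts are not comparable as shares. Leaving out single libraries gave 0 to 2 members with such a p, and 251 to 496 genes in all. All 10 members had a higher mean at 1000 µM in every alternative except those that left out 1000 µM replicate 3. There CHLM stood at -0.0235, the low end of a range up to 0.206 with single libraries left out, and at -0.0019 when 6 µM replicate 1 was left out too. The median difference of the members, 0.24, was 0.15 with the same FPKM total, which put the median of all tested genes at -0.06, and 0.15 with quantile normalization. It ranged from 0.13 to 0.31 when 1 library was left out, lowest without 1000 µM replicate 3. The deviations of libraries with the same number correlated, across genes, at r = -0.396, 0.513 and -0.503 for numbers 1, 2 and 3. With a replicate block, 0 genes and 0 members passed, 306 genes had an unadjusted p under 0.05 and the members' median stayed at 0.24.

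With all cultures, the differences between groups in the log2 ratio of a gene pair lay between 0.01 and 0.06. Each changed sign in some of the settings with a single library left out. CHLI1 to CHLD ranged from -0.0038 to 0.0384 and CHLH1 to CHLD from -0.0407 to 0.13. GUN4 to CHLH1 ranged from -0.0935 to 0.11 and was -0.08 without both libraries. POR1 to HEMA1 ranged from -0.14 to 0.29. What causes the shifts above was not tested. The unknown depth limits statements on counting error.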
